A study of Mus musculus with 6 samples.

Results

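The genes described here are 10 genes of prostaglandin and leukotriene metabolism, read from RNA-seq of colonic lamina propria macrophages (MΦs) of mice that lack the β chain of the IL10 receptor. They were chosen by symbol: *Pla2g4a*, *Ptgs1*, *Ptgs2*, *Ptges*, *Hpgds*, *Alox5*, *Alox5ap*, *Ltc4s*, *Ptger2* and *Ptger4*. All 10 are among the 14097 genes of the deposited table, and all 10 reached 50 normalized counts in at least 1 library, as 11067 genes did. MΦs with the P3/P4 surface phenotype (CD45+CD11b+CD11cintCD103-CD64+Ly6C-MHCII+) were sorted from untreated *Il10rb*-/- mice and *Il10rb*+/- littermates of the 129SvEv strain at 1, 3 and 12 weeks of age. The deletion is carried by every cell of the *Il10rb*-/- animals and is not restricted to MΦs, and the *Il10rb*+/- controls carry 1 deleted allele. There were 6 libraries, 1 for each genotype at each age. A library at 3 or 12 weeks came from 1 mouse and those at 1 week from pooled mice, and differences at 1 age could not be checked against replicates.

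Eicosanoids are lipid signals made from arachidonic acid, which cytosolic phospholipase A2 releases from membranes. Cyclooxygenases turn it into prostaglandin H2, from which terminal synthases make prostaglandin E2, prostaglandin D2 and other prostanoids, while the 5-lipoxygenase branch makes leukotrienes. MΦs are a major source of both kinds of lipid, and in the gut prostaglandin E2 acts on epithelium and immune cells through the receptors EP1 to EP4.

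At 12 weeks these genes parted in 2 directions between the genotypes. *Ptgs2* and *Ptges*, which encode the inducible cyclooxygenase and the microsomal prostaglandin E synthase, had 6.77-fold and 22.4-fold more normalized counts in *Il10rb*-/- than in *Il10rb*+/- MΦs. *Ptgs1* and *Hpgds*, which encode the constitutive cyclooxygenase and the hematopoietic prostaglandin D synthase, were 11.3-fold and 24.7-fold lower, and the leukotriene enzyme genes *Alox5* and *Ltc4s* were 59.5-fold and 16.0-fold lower. The other 4 genes differed by less than 3-fold, the threshold used in the study. At 1 and 3 weeks only *Ptges* was past it among the 10 genes, with 3.22-fold and 3.67-fold more in *Il10rb*-/- MΦs on few reads. The libraries compared at 1 week also differed in Y-linked genes: *Ddx3y* had 551 reads in the *Il10rb*+/- library, 0 in the *Il10rb*-/- library and at most 1 in any other, so sex and genotype cannot be told apart at that age.

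To show the start regions of the genes that parted most within the prostaglandin branch, the sequence from 250 bases before to 30 bases after the RefSeq start (GRCm38.p6) is given for both cyclooxygenases and both terminal synthases. Capitals mark matches, on either strand, to any of 6 motifs: the TATA box TATAAA, the E-box CACGTG, the core TGACG of a cAMP response element (CRE), the GC box GGGCGG, the STAT site TTCNNNGAA and the PU.1 core GAGGAA.
Ptgs1: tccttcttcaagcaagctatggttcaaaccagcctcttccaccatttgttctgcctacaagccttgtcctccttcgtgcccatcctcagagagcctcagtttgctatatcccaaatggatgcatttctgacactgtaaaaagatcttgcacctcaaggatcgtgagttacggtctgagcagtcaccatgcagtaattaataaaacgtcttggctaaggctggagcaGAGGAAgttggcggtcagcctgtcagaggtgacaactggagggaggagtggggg
Ptgs2: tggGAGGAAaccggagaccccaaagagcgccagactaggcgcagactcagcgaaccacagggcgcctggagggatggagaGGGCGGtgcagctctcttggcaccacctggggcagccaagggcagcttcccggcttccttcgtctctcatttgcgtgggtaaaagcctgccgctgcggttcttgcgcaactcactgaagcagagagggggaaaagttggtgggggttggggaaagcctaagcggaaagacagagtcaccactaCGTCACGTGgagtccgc
Ptges: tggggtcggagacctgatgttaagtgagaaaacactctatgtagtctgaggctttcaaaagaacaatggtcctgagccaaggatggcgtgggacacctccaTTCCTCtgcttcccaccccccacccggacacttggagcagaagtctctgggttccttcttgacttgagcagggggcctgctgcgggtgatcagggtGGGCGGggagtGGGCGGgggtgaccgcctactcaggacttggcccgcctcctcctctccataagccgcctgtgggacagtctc
Hpgds: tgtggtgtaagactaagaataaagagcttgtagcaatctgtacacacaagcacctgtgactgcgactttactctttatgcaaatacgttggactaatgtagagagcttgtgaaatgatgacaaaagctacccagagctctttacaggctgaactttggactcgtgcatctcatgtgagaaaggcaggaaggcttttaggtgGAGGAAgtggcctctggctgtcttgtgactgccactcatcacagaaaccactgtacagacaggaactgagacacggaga
These windows lie at chr2:36230176-36230455 (plus strand), chr1:150099781-150100060 (plus), chr2:30903268-30903547 (minus) and chr6:65144701-65144980 (minus). The *Ptges* window lies inside the gene as annotated in GENCODE M21 (30889471 to 30929863), since the RefSeq start used is downstream of the start of that annotation. The *Ptgs2* window holds an E-box at positions 17 to 22 after the start, overlapping a CRE core on the minus strand at 14 to 18, a GC box from -170 and a PU.1 core from -247. The *Ptges* window holds GC boxes from -53 and -42 and a PU.1 core on the minus strand from -149. *Ptgs1* and *Hpgds* each had a single match, to the PU.1 core, from -24 and from -49. Among 32851 windows of the same length in the table, 34.7% held a GC box, 26.0% the PU.1 core, 19.9% the CRE core, 13.1% the TATA box, 7.83% the STAT site and 6.79% the E-box. The GC content was 61.4% for *Ptgs2*, 59.6% for *Ptges*, 49.6% for *Ptgs1* and 45.7% for *Hpgds*, against a median of 52.5% over all windows. A match is a run of letters and not a shown binding site. Windows of 9 of the 10 genes were searched, without *Alox5ap*. *Pla2g4a* and *Ptger2* held no match, *Alox5* held a GC box from -35 and a PU.1 core from -136, *Ltc4s* a PU.1 core on the minus strand at 17 to 22, and *Ptger4* GC boxes on the minus strand from -148, -143, -95 and -42.

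The depth on the listed genes lay between 6700337 reads (3-week *Il10rb*+/-) and 40754971 reads (12-week *Il10rb*+/-). The values are reads divided by a size factor for each library, termed normalized counts, and intervals in what follows are exact Clopper-Pearson 95% intervals of the log2 ratio that cover counting error only and compare the libraries rather than the genotypes. The targeted gene had 1231, 386 and 2341 reads in the *Il10rb*+/- libraries and 8, 28 and 43 in the *Il10rb*-/- libraries at 1, 3 and 12 weeks. The MΦ genes *Fcgr1* (CD64), *Csf1r* and *Itgam* were present in every library. *Cx3cr1*, *Adgre1* and *C1qa*, also MΦ genes, were present too but over 3-fold lower in the 12-week *Il10rb*-/- than in the 12-week *Il10rb*+/- library. The 12-week *Il10rb*-/- library stood apart from the rest: of all genes past the filter, 34.3% were highest in it and 30.7% were lowest in it.

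**Figure D1:**
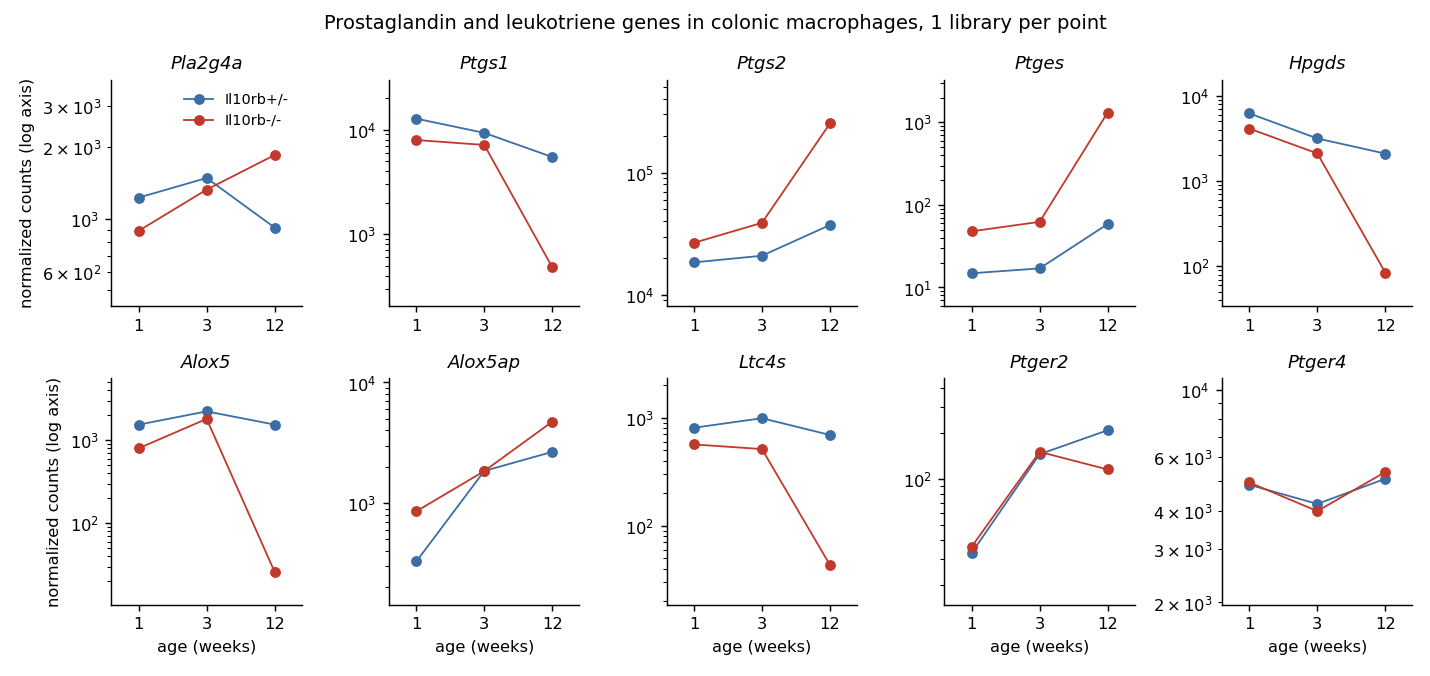
Normalized counts (log axis, a separate scale in each panel) of the 10 genes against age in weeks, with 1 point per library, blue for *Il10rb*+/- and red for *Il10rb*-/-. At 12 weeks the red point lies far below the blue one for *Ptgs1*, *Hpgds*, *Alox5* and *Ltc4s* and far above it for *Ptgs2* and *Ptges*.

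The cyclooxygenases had the highest levels per kb of exon of the 10 genes at 1 week in both genotypes. *Ptgs2* (ENSMUSG00000032487, chromosome 1 from 150100031 to 150108227 in GRCm38/mm10 coordinates) had 18429, 20897 and 37245 normalized counts in *Il10rb*+/- MΦs at 1, 3 and 12 weeks, and 26653, 38822 and 251994 in *Il10rb*-/- MΦs. It was higher in the *Il10rb*-/- library at each age, and the 12-week *Il10rb*-/- library stood far above the other 5. The log2 ratio of *Il10rb*-/- over *Il10rb*+/- was 0.53 (interval 0.50 to 0.56) at 1 week, 0.89 (0.86 to 0.93) at 3 weeks and 2.76 (2.75 to 2.77) at 12 weeks. Its transcripts took 1.12% of all reads in the 12-week *Il10rb*-/- library, where it ranked 5 among all listed genes, and between 0.124% and 0.231% in the other libraries.

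*Ptgs1* (ENSMUSG00000047250, chromosome 2 from 36230426 to 36252272) had 12727, 9294 and 5462 normalized counts in *Il10rb*+/- MΦs and 7941, 7127 and 481 in *Il10rb*-/- MΦs. It was lower in the *Il10rb*-/- library at each age, with log2 ratios of -0.68 (-0.73 to -0.63), -0.38 (-0.44 to -0.33) and -3.50 (-3.61 to -3.40). The same gene was lower at each later age within each genotype, and the step from 3 to 12 weeks was -0.77 (-0.82 to -0.71) on the log2 scale in *Il10rb*+/- and -3.89 (-4.00 to -3.78) in *Il10rb*-/- MΦs. With levels expressed per kb of exon, *Ptgs2* exceeded *Ptgs1* in every library. The ratio of their levels per kb was 1.23, 1.91 and 5.78 in *Il10rb*+/- and 2.85, 4.62 and 444 in *Il10rb*-/- MΦs at 1, 3 and 12 weeks. Exon length here is that of all annotated exons of a gene merged, whichever transcripts are expressed. Orders and ratios between genes depend on it, small ratios such as 1.23 most, and the intervals do not cover this.

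The terminal synthases showed the same division. *Ptges* (ENSMUSG00000050737, chromosome 2 from 30889471 to 30929863), which makes prostaglandin E2 and is induced together with *Ptgs2* in many cells, had 14.9, 17.0 and 58.6 normalized counts in *Il10rb*+/- MΦs and 47.9, 62.4 and 1314 in *Il10rb*-/- MΦs. Reads behind these values numbered 15, 7 and 124 in *Il10rb*+/- and 32, 71 and 2064 in *Il10rb*-/- libraries, so the gene was barely detected outside the 12-week *Il10rb*-/- library. The log2 ratios were 1.69 (0.76 to 2.68), 1.87 (0.76 to 3.24) and 4.49 (4.22 to 4.76). The first 2 intervals exclude 0 but also reach below the 3-fold threshold, which is 1.58 on this scale.

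*Hpgds* (ENSMUSG00000029919, chromosome 6 from 65117293 to 65144908), which makes prostaglandin D2, had 6202, 3154 and 2094 normalized counts in *Il10rb*+/- MΦs and 4116, 2104 and 84.7 in *Il10rb*-/- MΦs. Its log2 ratios were -0.59 (-0.66 to -0.53) at 1 week, -0.58 (-0.68 to -0.49) at 3 weeks and -4.63 (-4.89 to -4.38) at 12 weeks. The level was lower at each later age in both genotypes. Per kb of exon, *Hpgds* exceeded *Ptges* by between 20.6-fold and 255-fold in 5 of the 6 libraries. In the 12-week *Il10rb*-/- library the order was turned, with *Ptges* at 25.4 times the level of *Hpgds* per kb (interval 21.3 to 30.5).

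**Figure D2:**
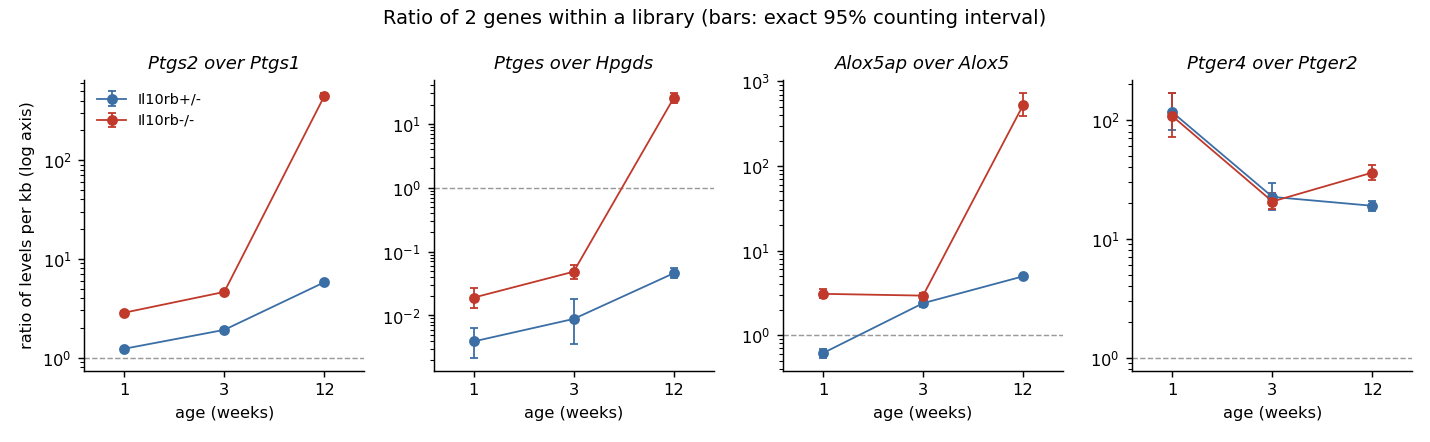
Ratio of the levels per kb of exon of 2 genes in the same library (log axis) against age in weeks, with bars for exact 95% counting intervals and a dashed line at equal levels. In the 12-week *Il10rb*-/- library *Ptgs2* over *Ptgs1* reached 444, *Ptges* over *Hpgds* 25.4 and *Alox5ap* over *Alox5* 524, while *Ptger4* over *Ptger2* stayed within the range of the other libraries.

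In the leukotriene branch the 3 genes did not differ in the same direction. *Alox5* (ENSMUSG00000025701, chromosome 6 from 116410077 to 116461178), the 5-lipoxygenase that begins leukotriene synthesis, had 1550, 2241 and 1552 normalized counts in *Il10rb*+/- MΦs and 804, 1819 and 26.1 in *Il10rb*-/- MΦs. The level was similar at 1 and 12 weeks in *Il10rb*+/- MΦs, and in *Il10rb*-/- MΦs only 41 reads were left at 12 weeks. The log2 ratios were -0.95 (-1.09 to -0.80), -0.30 (-0.41 to -0.19) and -5.89 (-6.38 to -5.45), and the last is the largest difference among the 10 genes. *Ltc4s* (ENSMUSG00000020377, chromosome 11 from 50236461 to 50238616), the synthase that joins glutathione to leukotriene A4 to give leukotriene C4, had 808, 990 and 693 normalized counts in *Il10rb*+/- and 566, 513 and 43.3 in *Il10rb*-/- MΦs. Its log2 ratios were -0.51 (-0.69 to -0.34), -0.95 (-1.14 to -0.76) and -4.00 (-4.37 to -3.65).

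*Alox5ap* (ENSMUSG00000060063, chromosome 5 from 149264767 to 149288153), which encodes the membrane protein FLAP that presents arachidonic acid to 5-lipoxygenase, had 328, 1847 and 2659 normalized counts in *Il10rb*+/- and 855, 1843 and 4730 in *Il10rb*-/- MΦs. It was higher with age in both genotypes. The log2 ratios were 1.38 (1.18 to 1.58) at 1 week, 0.00 with an interval from -0.12 to 0.12 at 3 weeks, and 0.83 (0.78 to 0.88) at 12 weeks. *Alox5ap* over *Alox5* per kb was 0.612, 2.38 and 4.95 in *Il10rb*+/- and 3.07, 2.93 and 524 in *Il10rb*-/- MΦs. Antisense genes share 26.4% of the exon bases of *Ltc4s* and 13.3% of those of *Alox5ap*, and the strand setting of the read counting is not given in the sources used here, so reads of these partners cannot be told apart.

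Upstream of both branches, *Pla2g4a* (ENSMUSG00000056220, chromosome 1 from 149829618 to 149961290), the cytosolic phospholipase A2, had 1229, 1487 and 920 normalized counts in *Il10rb*+/- and 891, 1329 and 1857 in *Il10rb*-/- MΦs. It was lower in *Il10rb*-/- MΦs at 1 and 3 weeks and higher at 12 weeks. The log2 ratios were -0.46 (-0.61 to -0.32), -0.16 (-0.30 to -0.02) and 1.01 (0.93 to 1.10), each under 3-fold.

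Of the 2 receptors for prostaglandin E2 among the 10 genes, *Ptger4* differed little between the genotypes and *Ptger2* differed by less than 3-fold. *Ptger4* (EP4, ENSMUSG00000039942, chromosome 15 from 5206661 to 5244187) had 4867, 4212 and 5095 normalized counts in *Il10rb*+/- and 4955, 3990 and 5360 in *Il10rb*-/- MΦs. Its log2 ratios of 0.03 (-0.04 to 0.09), -0.08 (-0.16 to 0.00) and 0.07 (0.03 to 0.11) were the smallest of the 10 genes at 1 and 12 weeks, and the sign at 12 weeks turned to -0.15 when libraries were scaled to their total reads. A processed pseudogene on the opposite strand shares 15.3% of its exon bases. *Ptger2* (EP2, ENSMUSG00000037759, chromosome 14 from 44988195 to 45003820) had 32.7, 146 and 210 normalized counts in *Il10rb*+/- and 35.9, 151 and 116 in *Il10rb*-/- MΦs, on 24 to 444 reads. A difference between genotypes was not detectable at this depth at 1 week (log2 ratio 0.14, -0.69 to 0.94) or 3 weeks (0.05, -0.38 to 0.50), and it was -0.86 (-1.11 to -0.61) at 12 weeks. In both genotypes *Ptger2* was higher at 3 than at 1 week, by 2.16 (1.52 to 2.82) and 2.07 (1.45 to 2.75) on the log2 scale. *Ptger4* exceeded *Ptger2* per kb by between 19.0-fold and 116-fold in all 6 libraries.

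**Figure D3:**
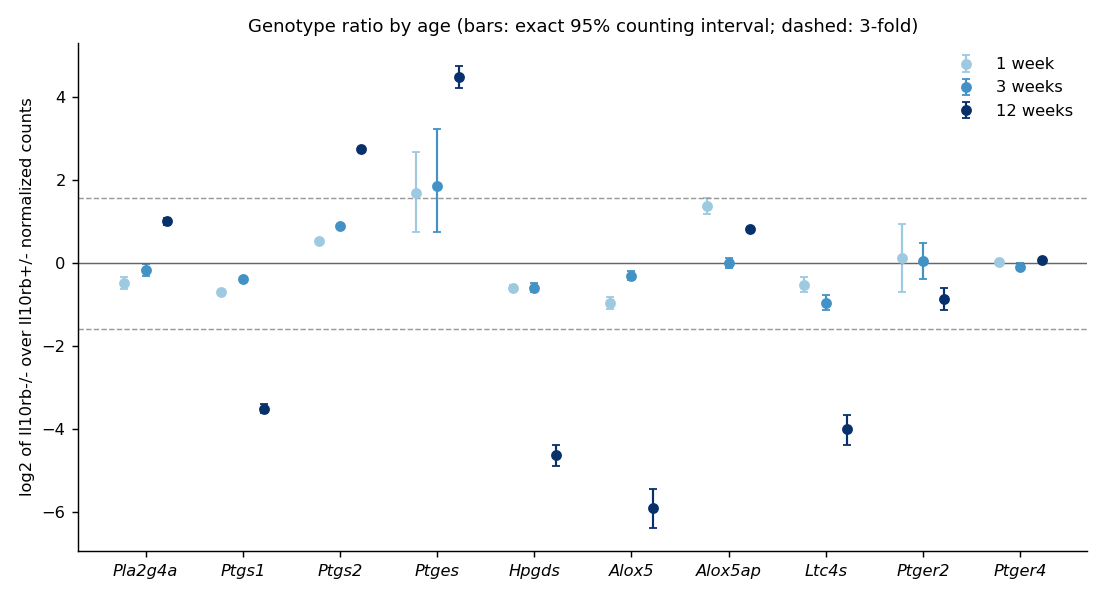
Log2 ratio of *Il10rb*-/- over *Il10rb*+/- normalized counts for each of the 10 genes at 1, 3 and 12 weeks (light to dark), with exact 95% counting intervals and dashed lines at 3-fold. At 12 weeks 2 genes lie above the upper line and 4 below the lower one, from 4.49 for *Ptges* to -5.89 for *Alox5*.

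As a set, 1 of the 10 genes was over 3-fold higher at 1 week and at 3 weeks, and none was over 3-fold lower. The corresponding shares of all 11067 genes past the filter were 2.75% higher and 0.75% lower at 1 week, and 1.34% and 0.642% at 3 weeks. At 12 weeks 2 of the 10 were over 3-fold higher, where 4.03% of all genes were, and 4 were over 3-fold lower, where 9.99% were. The median log2 ratio of the 10 genes was -0.22, -0.12 and -0.39 at 1, 3 and 12 weeks, and that of all genes past the filter was -0.04, 0.02 and 0.04. The genes were chosen with results of these data known, so these counts describe them and do not test them. Scaling by total reads in place of the size factors moved the median of all genes by -0.22 at 12 weeks, and the same 6 genes stayed past 3-fold. The 12-week *Il10rb*-/- library held the lowest value of the 6 for *Ptgs1*, *Hpgds*, *Alox5* and *Ltc4s*, as for 30.7% of all genes past the filter. It held the highest for *Pla2g4a*, *Ptgs2*, *Ptges*, *Alox5ap* and *Ptger4*, as for 34.3% of all genes past the filter.

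The order of levels per kb of exon was accordingly different at the ends of the series. In 1-week *Il10rb*+/- MΦs it ran from *Ptgs2* (4024 normalized counts per kb), *Ptgs1* (3277), *Hpgds* (965), *Ltc4s* (797), *Ptger4* (732), *Alox5* (377), *Alox5ap* (231) and *Pla2g4a* (192) to *Ptger2* (6.30) and *Ptges* (3.78). In 12-week *Il10rb*-/- MΦs it ran from *Ptgs2* (55020), *Alox5ap* (3331), *Ptger4* (806), *Ptges* (334) and *Pla2g4a* (291) through *Ptgs1* (124) and *Ltc4s* (42.7) to *Ptger2* (22.3), *Hpgds* (13.2) and *Alox5* (6.36). With 1 library per group no spread between animals is known, so neighbours in these orders are not shown to differ.

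Replication was available only across ages, by comparing all 3 *Il10rb*-/- with all 3 *Il10rb*+/- libraries in a fit that also held age. Its residual is how much the difference between genotypes varied from age to age. The fit asks whether the mean difference over the 3 ages departs from 0 relative to that variation, and cannot test a single age. No gene was called by limma at an adjusted p under 0.05 (0 of 11067, 0%), and 853 genes had an unadjusted p under 0.05, among them *Ptges*, *Ptgs2*, *Alox5ap* and *Ltc4s*. The mean log2 difference was 2.63 (SE 0.64) for *Ptges*, 1.39 (SE 0.46) for *Ptgs2*, 0.74 (SE 0.28) for *Alox5ap* and -1.81 (SE 0.67) for *Ltc4s*, each with an adjusted p of 0.627 in limma. *Ptges*, *Ptgs2*, *Ptgs1*, *Hpgds*, *Alox5* and *Ltc4s* had the same sign at all 3 ages. For *Alox5* the mean was -2.36 (SE 1.06), for *Hpgds* -1.93 (SE 0.82) and for *Ptgs1* -1.52 (SE 0.61), where the 12-week ratio was far larger than the others. Without the 12-week libraries the mean was 1.72 for *Ptges*, 0.71 for *Ptgs2*, -0.73 for *Ltc4s*, -0.62 for *Alox5*, -0.59 for *Hpgds* and -0.53 for *Ptgs1*. For *Alox5ap* it was 0.41 without the 1-week and 1.10 without the 3-week libraries.

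Age was compared in the same fit, averaged over genotypes. Between 1 and 3 weeks limma called 2 genes (0.0181%), and between 3 and 12 weeks 3 genes (0.0271%), none of them among the 10. From 1 to 3 weeks the largest differences among the 10 were 2.08 (SE 0.39, adjusted p = 0.214 in limma) for *Ptger2* and 1.80 (SE 0.34, adjusted p = 0.215) for *Alox5ap*. Both were called without the 12-week *Il10rb*+/- library (adjusted p = 0.00105 and 0.000544 in limma) or without the 12-week *Il10rb*-/- library (0.00106 and 0.000636), fits in which 988 and 1016 genes were called. Neither was called when a 1-week or 3-week library was left out, with adjusted p of 0.249 to 1.00 for *Ptger2* and 0.081 to 1.00 for *Alox5ap*, whose difference was 1.24 without the 3-week *Il10rb*+/- library. From 3 to 12 weeks *Ptges* differed by 3.05 (SE 0.78, adjusted p = 0.164 in limma). Without the 12-week *Il10rb*-/- library the difference was 1.68 (adjusted p = 0.138). Without the 12-week *Il10rb*+/- library, where 12 weeks is the *Il10rb*-/- library alone and is assumed to vary like the other groups, it was 4.42 (adjusted p = 1.3e-05) and 3124 genes were called.

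Of 54 other genes of the pathway, 44 were in the table and 33 passed the filter. At 12 weeks 1 of the 33 (3.03%) was over 3-fold higher and 5 (15.2%) were over 3-fold lower in *Il10rb*-/- MΦs, against 4.03% and 9.99% of all genes past the filter, with a median log2 ratio of -0.10, and no gene was over 3-fold in the same direction at 2 ages. None of the 33 was called in the limma comparison of genotypes. The 6 genes past 3-fold are named here after their values were seen. *Hpgd*, the 15-hydroxyprostaglandin dehydrogenase that inactivates prostaglandin E2, had 3512, 2076 and 782 normalized counts in *Il10rb*+/- and 2677, 1662 and 15.3 in *Il10rb*-/- MΦs, with a 12-week log2 ratio of -5.68 (-6.32 to -5.10). It was therefore 51.2-fold lower at 12 weeks, next to *Alox5* in size. *Slco2a1*, which encodes a transporter that takes up prostaglandins, had 145 and 31.2 normalized counts at 12 weeks (-2.21, interval -2.68 to -1.77) and at most 3 reads in any library at 1 and 3 weeks.

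*Alox15*, the 12/15-lipoxygenase, had 238 and 32.5 normalized counts at 12 weeks (-2.87, interval -3.32 to -2.46). *Mgll*, the monoacylglycerol lipase, was lower by a log2 ratio of -2.33 (-2.68 to -1.99). The secreted phospholipase gene *Pla2g2d* had 134, 209 and 263 normalized counts in *Il10rb*+/- and 328, 614 and 54.1 in *Il10rb*-/- MΦs, so that it was higher in *Il10rb*-/- at 1 and 3 weeks and lower at 12 weeks. The gene higher at 12 weeks was *Pla2g16*, a phospholipase gene, with 295 and 1049 normalized counts (1.83, interval 1.69 to 1.96).

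The gene of each group with the highest level per kb, taken as the mean over the 6 libraries, differed by less than 3-fold at every age. *Lpcat2*, which returns acyl chains to lysophospholipids, had 12-week log2 ratio 0.67 (0.62 to 0.71). *Ptges3*, a co-chaperone with prostaglandin E synthase activity, had 0.17 (0.13 to 0.22), and *Cyp4f18*, which oxidizes leukotriene B4, had 0.42 (0.35 to 0.49). The leukotriene B4 receptor gene *Ltb4r1* had 0.45 (0.34 to 0.57) and the transporter gene *Abcc1* had -0.03 (-0.12 to 0.06). Of the 5 receptor genes past the filter, none was over 3-fold at any age.

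**Figure D4:**
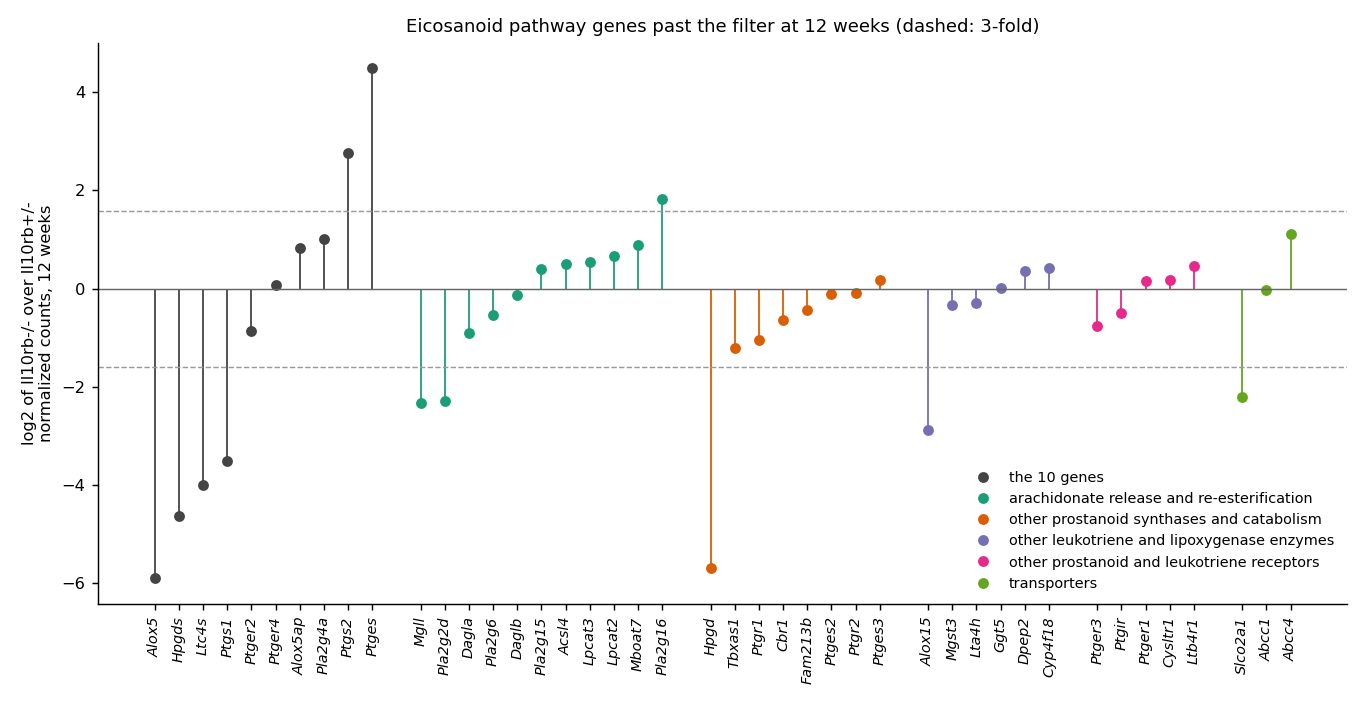
Log2 ratio of *Il10rb*-/- over *Il10rb*+/- normalized counts at 12 weeks for the 10 genes and the 33 other pathway genes past the filter, grouped by role and ordered within each group, with dashed lines at 3-fold. In the other groups 1 gene lies above the upper line (*Pla2g16*) and 5 below the lower one, the lowest being *Hpgd* at -5.68.

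Genes that mark other cells also differed at 12 weeks. All 6 monocyte genes past the filter were higher in the *Il10rb*-/- library (median log2 ratio 2.87), and the summed level of the 6 genes of that list was 4310, 21347 and 13475 normalized counts in *Il10rb*+/- and 11097, 21494 and 32121 in *Il10rb*-/- MΦs. Of these, *Plac8* had 1515 and 14515 normalized counts at 12 weeks, and *Ccr2* 11505 and 13312. *Ly6c2*, a gene for Ly6C, had 143 and 2611 at that age, although the cells were sorted as Ly6C-. The 8 neutrophil genes summed to 89.2, 443 and 555 in *Il10rb*+/- and to 202, 309 and 6489 in *Il10rb*-/- MΦs, with 6 of 6 past the filter higher at 12 weeks. At that age *S100a9* had 33.6 and 2906 normalized counts, *S100a8* 12.8 and 1673, and *Retnlg* 346 and 471. *Ly6g* and *Camp* did not pass the filter, with 25 and 23 reads in the 12-week *Il10rb*-/- library. *Kit*, a mast cell marker, had 490 and 2554 normalized counts at 12 weeks, and 1 other mast cell gene was in the table, *Cma1*, with 0 reads in 4 of the 6 libraries. Of the 10 MΦ genes, 4 were higher and 6 lower at 12 weeks in the *Il10rb*-/- library. *Cx3cr1* (log2 ratio -3.16), *Adgre1* (-2.12) and *C1qa* (-2.08) were over 3-fold lower, and *Itgax* (1.05) was the highest. The 10 MΦ genes summed to 447770 (*Il10rb*+/-) and 478329 (*Il10rb*-/-) normalized counts at that age, and without the abundant *H2-Ab1* the other 9 summed to 123260 and 79847.

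Epithelial genes past the filter were higher at 12 weeks in 6 of 6 (list sums 496 and 1792 normalized counts) and dendritic cell genes in 4 of 4 (10826 and 39794), of which *Ccr7* alone had 10331 and 38707. Stromal genes were lower in 6 of 6 (3927 and 327) and B and plasma cell genes in 5 of 5 (16765 and 1816). Eosinophil genes past the filter were lower in 2 of 2 (list sums 211 and 60.5). No tuft cell gene passed the filter, and that list summed to 77.1 and 21.6. At 1 week the stromal genes were over 3-fold higher in *Il10rb*-/- MΦs in 6 of 6 (159 and 1140) and the epithelial genes higher in 6 of 6 (133 and 759). At 3 weeks 3 monocyte genes were higher and 3 lower in *Il10rb*-/- MΦs. Among these *Ly6c2* had 9.73 and 285 normalized counts, *Plac8* 513 and 1706, and *Chil3* 97.3 and 26.4. *Kit* had 114 and 541 at that age. Dendritic cell genes past the filter were higher in 2 of 4 (list sums 1229 and 3336), and epithelial genes lower in 5 of 6 (908 and 565). In sorted cells read as a bulk, fewer cells of a kind and less RNA per cell cannot be told apart. The part of these marker genes in the differences of the 10 genes was not tested at any age.

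Likeness was taken as Pearson's r of log2(value + 1) over the 6 libraries, as a description, since the 12-week *Il10rb*-/- library sets most of it. The genes most like *Ptgs1* were *Rin2*, *Epor* and *Cd4*, those most like *Hpgds* were *Tanc2*, *Ctsf* and *Col14a1*, those most like *Alox5* were *Cebpa*, *Mrc1* and *Pgap3*, and those most like *Ltc4s* were *Npl*, *Myom1* and *Rnf150*. For *Ptgs2* they were *Cd247*, *Arih1* and *Tmem123*, and for *Ptges* *Itpa*, *Uqcrfs1* and *Cox17*. *Alox5ap* was most like *Inf2*, *Mefv* and *Fam129a*, *Ptger2* most like *Gprc5b*, *Klf4* and *Capn2*, *Pla2g4a* most like *Gm12216*, *Fbxo42* and *Sgk3*, and *Ptger4* most like *Eif2s1*, *BC029214* and *Rab9*. The r of these genes lay between 0.977 and 0.9997.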

How the data were processed

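RNA-seq of sorted P3/P4 MΦs was analysed in 6 libraries, with genotype and age taken from the labels. The labels and the study differ on how many mice were pooled at 1 week and on the library kit. The authors trimmed the reads with Trim Galore and aligned them to mm10 with TopHat. The authors obtained gene counts from HTSeq and scaled these by DESeq size factors. The deposited values are this normalized signal, with 0 shown as 1, and versions are not given in the sources used here. In each library 100% of the other values were whole multiples of 1 step, within 0.01 of a read, and reads were read back with it (0.473 to 2.43 normalized counts per read). Log2 ratios used no pseudocount. Tests used limma 3.58.1 (R 4.3.3) on log2(value + 1) with age and genotype as terms and a mean-variance trend, and p-values were adjusted by the Benjamini-Hochberg method over 11067 genes with at least 50 normalized counts in 1 library or more. Other steps used Python 3.11.15 and scipy 1.17.1. Both were tested on simulated data. Exon lengths and positions are from GENCODE M21, in which 14085 of 14097 genes were found. Every one of the 10 genes is named. Of the other pathway genes, the rule names those over 3-fold the same way at 2 or more ages, those called between genotypes and the most abundant per kb of each group. The 10 genes and the lists were chosen with earlier results of these data known.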

Additional observations from a re-analysis of the deposited data

Results flagged for a closer look

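Among the 10 genes and the other pathway genes named by value, the ratio between genotypes lay on opposite sides of 0 at different ages, by counting intervals that exclude 0, for *Pla2g4a*, *Lpcat2* and *Pla2g2d*. Such a change of side was seen in 9 of the 33 other pathway genes past the filter (27.3%), unnamed ones included, and in 2754 of all 11067 genes (24.9%). With 1 library per genotype and age this difference between ages was not tested. *Pla2g4a* had log2 ratios of -0.46 at 1 week and -0.16 at 3 weeks, and 1.01 at 12 weeks. *Lpcat2* had -0.43 at 1 week, 0.092 at 3 weeks and 0.67 at 12 weeks. *Pla2g2d* had 1.29 at 1 week and 1.55 at 3 weeks, against -2.28 (interval -2.63 to -1.95) at 12 weeks.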

How the results depend on the processing

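At 12 weeks the same number of the 10 genes, 2 higher and 4 lower, was over 3-fold with a pseudocount of 10, TMM factors, total reads, a filter on the 2 libraries compared and every listed gene. The count of *Ptges* as over 3-fold at 1 week rested on few reads: with a pseudocount of 10 the number of the 10 genes over 3-fold higher was 0 at 1 week and 0 at 3 weeks, and with the filter on the libraries compared it was 0 at 1 week. Over all genes past 3-fold in either direction, a pseudocount of 10 left 125 at 1 week and 85 at 3 weeks, the filter on the libraries compared left 133 and 105, and every listed gene gave 1124, 895 and 2947 at 1, 3 and 12 weeks. In limma the genotype comparison called 1 gene with a pseudocount of 10 and 1 without the age term, and between 3 and 61 genes when both libraries of an age were left out. From 1 to 3 weeks it called 8 genes with a pseudocount of 10, 0 without the trend and between 1 and 1016 with 1 library left out. From 3 to 12 weeks it called 8 genes with a pseudocount of 10, 0 with total reads, 0 without the trend and between 1 and 3124 with 1 library left out. Leaving out the libraries of 1 age in turn, the mean log2 difference between genotypes ranged from -0.31 (without 12 weeks) to 0.43 for *Pla2g4a*, from -0.40 to 0.091 (without 12 weeks) for *Ptger2* and from -0.026 (without 12 weeks) to 0.049 for *Ptger4*, and it was -0.082 for *Ptger4* with total reads. *Ptger4* at 12 weeks turned to -0.15 with total reads. The cause was not tested. A count model was not run on the reads read back, because the deposited values show 0 as 1. Depth limited *Ptges* and *Ptger2* at 1 and 3 weeks most.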
